A study of Saccharomyces cerevisiae with 12 samples.

Results

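Divergent gaps, the stretches of DNA from which neighbouring yeast genes are transcribed away from each other, were examined for RNA polymerase II (Pol II) in Saccharomyces cerevisiae with and without the DEAD-box RNA helicase Dbp2. A gap was taken between adjacent protein-coding genes of the nuclear genome when it measured at least 100 bp, held no other annotated gene, and had its left gene on the C strand and its right gene on the W strand. The rule gave 1393 divergent gaps of 5249 gaps in all, beside 2587 tandem gaps (genes in the same direction) and 1269 convergent gaps (genes pointing at each other). The members were bounded by 2786 different genes. Each gap runs from start codon to start codon, so it holds the promoters and also the 5′ UTRs of both genes. Divergent gaps had a median length of 491 bp (quartiles 285 and 750 bp, range 106 to 7822 bp), against 389 bp for tandem and 245 bp for convergent gaps.

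The wild type and the dbp2Δ mutant shared a MATa background with deletion alleles of HIS3, LEU2, MET15 and URA3, and in the mutant DBP2 was replaced by the KanMx6 marker. Both strains carried a FLAG tag on Pol II (the Rpb3 subunit), grew in rich medium with glucose, and were fixed with formaldehyde before immunoprecipitation with an anti-FLAG antibody. There were 3 immunoprecipitated and 3 input libraries per strain, 12 in all. The authors called 1 list of peaks per strain on the pooled libraries, so nothing below has an error between replicates and no test between strains could be made. Intervals are given over gaps or genes only: Wilson intervals for shares and order-statistic intervals for medians, both at 95%.

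In yeast, promoters sit in short nucleosome-depleted regions, and a divergent gap often serves both of its genes from a single such region. Many yeast promoters also start non-coding transcription in the opposite direction, which is normally ended early and degraded. Dbp2 unwinds RNA, associates with transcribed chromatin and is known for roles in mRNA assembly with proteins, termination and mRNA export. A Pol II peak marks crosslinked polymerase and does not tell which strand it was transcribing.

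The lists were similar in size, with 1642 wild-type and 1628 dbp2Δ peaks, on 3648848 and 4030024 fragments kept after duplicates were removed. The deleted gene followed its label: DBP2 (chromosome XIV, 413639 to 416281) was covered over 100% in the wild type and 0% in dbp2Δ, and it bounds no divergent gap of this set. The peak caller recorded fragment sizes of 260 bp (wild type) and 290 bp (dbp2Δ), and median peak widths were 886 and 988.5 bp. The part of these differences in the results below was not tested.

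Peaks covered divergent gaps less in dbp2Δ than in the wild type. At least 50% of the gap lay under peaks in 159 divergent gaps in the wild type (11.4%, interval 9.85 to 13.2) and in 85 in dbp2Δ (6.10%, interval 4.96 to 7.48). Over all gaps of any orientation the shares were 26.2% and 26.9%. Tandem gaps gave 26.7% and 25.8%, and convergent gaps 41.4% and 51.9%. Divergent gaps were thus covered less often than either other kind in both lists, and the difference between lists ran the other way at convergent gaps. In bases, wild-type peaks covered 123.785 kb of divergent gap and dbp2Δ peaks 82.748 kb, or 66.8% of the wild-type length. The same ratio was 97.4% for tandem and 122.6% for convergent gaps.

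**Figure D1:**
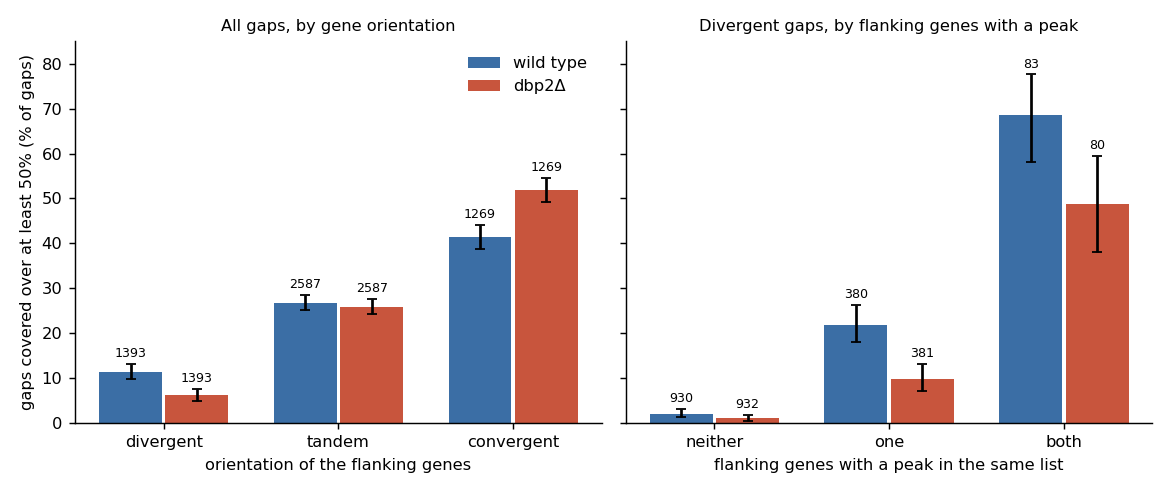
Percent of gaps covered over at least 50% of their length by wild-type (blue) and dbp2Δ (red) peaks, by orientation of the flanking genes (left) and, for divergent gaps, by how many flanking genes had a peak in the same list (right). Bars start at 0, error bars are Wilson 95% intervals over gaps, not replicate error, and numbers above bars count gaps. The dbp2Δ bar is lower at divergent gaps (6.10% against 11.4%) and higher at convergent gaps (51.9% against 41.4%).

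Single gaps mostly moved the same way. Some part of 494 divergent gaps was covered in at least one list, and 376 of these (76.1%) were covered less in dbp2Δ, 80 more and 38 equally. As a share of all 1393 divergent gaps, 27.0% were covered less and 5.74% more, where all gaps gave 16.3% and 13.9%. At convergent gaps 49 were lower and 261 higher, and at tandem gaps 432 were lower and 391 higher. Of the divergent gaps that reached 50% coverage, 75 did so in both lists, 84 only in the wild type and 10 only in dbp2Δ.

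**Figure D2:**
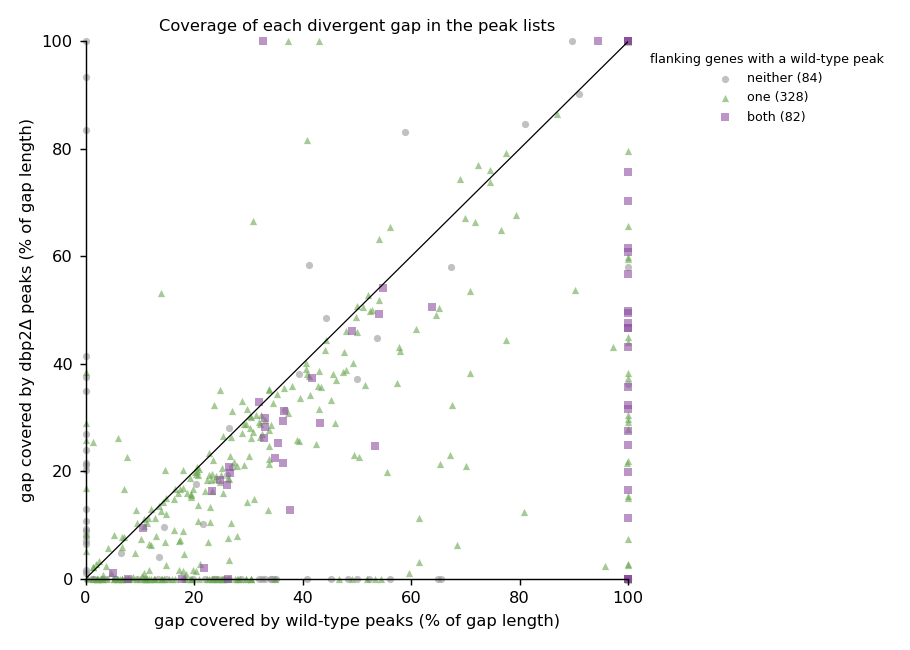
Each point is a divergent gap with any coverage in either list, by the percent of its length under wild-type peaks (x axis) and under dbp2Δ peaks (y axis), with the line of equality. Symbols give how many flanking genes had a wild-type peak. Of the 494 gaps, 376 lie below the line and 80 above it, with a column of gaps at 100% in the wild type that spread from 0% to 100% in dbp2Δ.

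Coverage varied with whether the flanking genes themselves had a peak. A gene was said to have a peak when peaks covered at least 50% of it, so a gene counted as without one could still be covered in part. The same peaks set both the gene calls and the gap coverage, so these are not independent measures. Where neither flanking gene had a peak (930 gaps in the wild type, 932 in dbp2Δ), mean coverage of the gap was 2.67% and 1.31%. Where 1 of them had a peak (380 and 381 gaps) it was 31.7% and 19.0%, and where both had a peak (83 and 80 gaps) it was 75.3% and 58.3%. The numbers of gaps in each class were close between the lists, while the coverage inside each class was lower in dbp2Δ. The rise with called genes was not particular to divergent gaps. In the same order of classes, wild-type means were 7.74%, 59.5% and 91.1% at tandem gaps, and 14.9%, 86.7% and 100% at convergent gaps.

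Gaps with the same number of called flanking genes in both lists gave the same order. Where 1 gene was called, it was not always the same gene in both lists, as at VMA11 and NSL1. For 301 gaps with a peak on 1 gene in each list, mean coverage was 32.8% for wild-type and 21.1% for dbp2Δ peaks, with 219 gaps lower and 45 higher. For 64 gaps with peaks on both genes in each list, it was 76.8% and 62.8%, with 34 lower and 3 higher. Of the 867 gaps with a peak on neither gene in either list, 809 were not covered at all in either list.

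When both genes had a peak, the gap was often bridged, meaning covered over its whole length. Every bridged gap in either list lay under a single peak. Over all divergent gaps, whatever their flanking genes, wild-type peaks bridged 96 (6.89%) and dbp2Δ peaks 43 (3.09%), and 37 were bridged in both lists. All gaps of any orientation gave 18.0% and 19.6%. With both genes called, 62.7% and 40.0% of divergent gaps were bridged. Tandem gaps of that class gave 82.9% and 82.1%, and convergent gaps 100% in both lists, but their median lengths were shorter. Both flanking genes had a peak in the same list in 52 of the 96 and in 32 of the 43. A single flanking gene had a peak in 37 and 8 of them, and neither gene in 7 and 3. Bridging varied with length: among gaps under 400 bp with peaks on both genes, wild-type peaks bridged 26 of 27 and dbp2Δ peaks 15 of 20. From 400 to under 700 bp these counts were 19 of 26 and 14 of 27, and from 700 bp upwards 7 of 30 and 3 of 33. Short gaps were therefore the most often bridged in both lists, and dbp2Δ had the smaller share in each length class.

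Gaps bridged in both lists, with both genes called in both, were ranked by wild-type peak. The top 10 included that of YDR524C-B and API2 and that of YOL038C-A and PRE6, a proteasome subunit gene. The strength of a peak is given as the authors' own fold enrichment over the local background, which ranks peaks within a list and was not compared between lists. It belongs to the strongest peak overlapping the gap, whose summit can lie outside the gap, at another gene. Among the 10, only the gap of RPS25A and YGR027W-A held a summit, in the wild type. The wild-type value at YOL038C-A and PRE6, 9.79, was also that of the nearby gap of RPS15 and RPP2A. RPL33B and IRC13 (chrXV:779406-779869, 464 bp) were bridged by a 19.2-fold wild-type peak and a 15.7-fold dbp2Δ peak. RPS22A and RPL39 (chrX:75303-75932, 630 bp), both genes for cytosolic ribosomal proteins, were bridged by peaks of 14.4 and 17.1. The gap between BUD20, a ribosome assembly factor, and RPL10 (chrXII:282457-282926) was bridged by peaks of 11.2 and 13.4. The gap between UTR5 and HYP2, the gene for translation factor eIF5A, was only 130 bp and was bridged by peaks of 8.75 and 5.78. At REX2, an RNA exonuclease gene, and FRS1, which encodes a phenylalanyl-tRNA synthetase subunit, the peaks reached 8.36 and 7.86. These gaps were chosen for being whole in both lists. They are examples without lower coverage in dbp2Δ and do not tell how common such gaps were.

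Very long bridged gaps were few. The longest in either list was the 1598 bp between RPS25A, a ribosomal protein gene, and YGR027W-A (chrVII:534459-536056), bridged in both. RPL24A and RPL30, genes for proteins of the large ribosomal subunit, were bridged over 1156 bp (chrVII:437935-439090) by peaks of 9.33 and 8.65. Between ACC1, which encodes acetyl-CoA carboxylase, and TIM23, which encodes a mitochondrial import channel, 1538 bp were covered over 100% in the wild type and 70.3% in dbp2Δ. At that gap ACC1 itself was covered over 100% in the wild type and 25.4% in dbp2Δ.

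Several bridged gaps were divided in dbp2Δ although both genes kept their peaks. Among the 64 gaps with both genes called in both lists, 27 were bridged in both, 13 in the wild type only, 2 in dbp2Δ only and 22 in neither. The 13 measured 345 to 820 bp, and were covered over 0% to 75.6% in dbp2Δ. All of the genes are named here, after their values were seen. They were RPS15 and RPP2A (56.7% in dbp2Δ), RPS16B and RPL13A (49.5%), RPS29B and TSR1 (75.6%), and HTB1 and HTA1 (60.8%). At RRP14, a ribosome assembly gene, and TEF4, which encodes a subunit of elongation factor eEF1B, coverage was 31.6%. CPR1, the cyclophilin gene, and RPA14, which encodes a subunit of RNA polymerase I, were separated by a gap of 524 bp (chrIV:769001-769524) that was 24.8% covered in dbp2Δ. At SKY1, a protein kinase gene, and GUA1, which encodes GMP synthetase, coverage was 43.2%, and at TOS1 and YSY6 it was 49.8%. PUS1, a pseudouridine synthase gene, and NIP7, a ribosome assembly gene, bounded a gap with 27.5% coverage. The gap of SLC1 and LHP1, the La protein gene, had 35.6%, that of PAM18 and RLP24 had 46.6%, and that of DED81 and YHR020W had 19.9%. PAC10 and YGR079W completed the set at 0%. The reverse was seen at RPS4A and YJR146W (chrX:703069-703884), covered over 32.7% in the wild type and 100% in dbp2Δ, and at PML39 and URA5, which encodes a pyrimidine synthesis enzyme, with 94.4% and 100%.

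**Figure D3:**
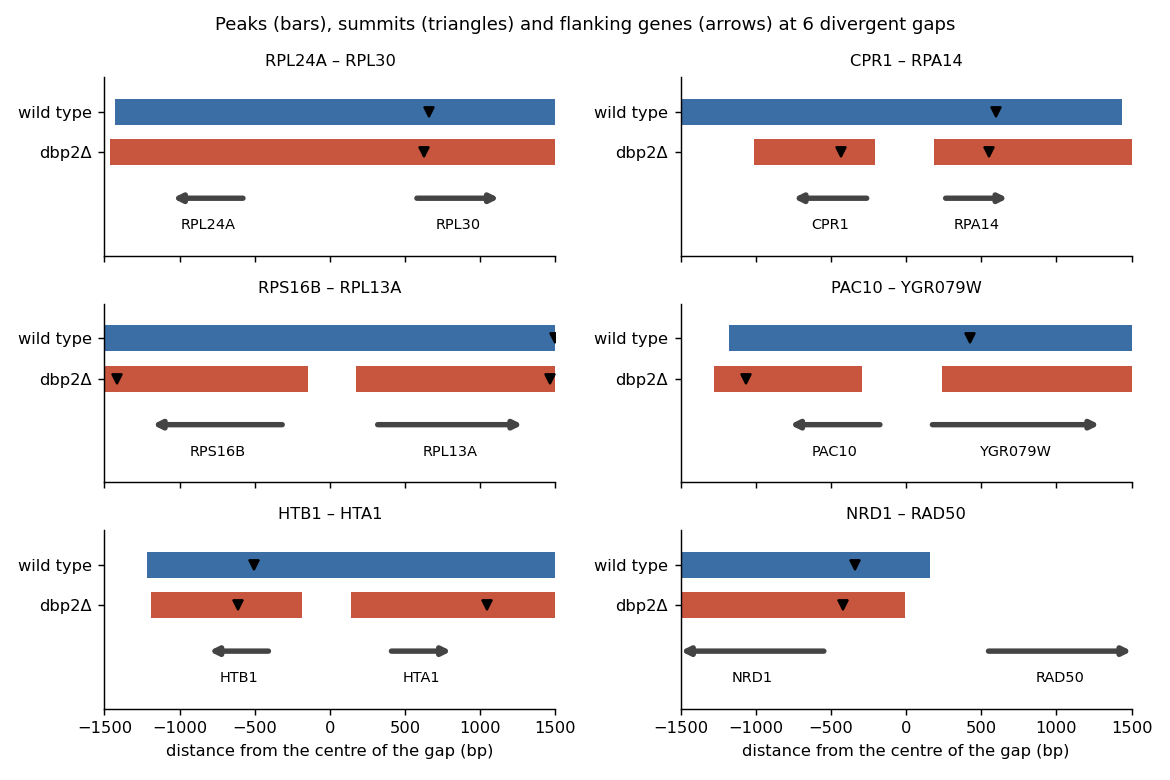
Peaks of the wild type (blue bars) and dbp2Δ (red bars) at 6 divergent gaps, plotted by distance in bp from the centre of the gap, with flanking genes as arrows and summits inside the plotted window as triangles. RPL24A and RPL30 lie under 1 peak in both lists. In the dbp2Δ list the gaps of RPS16B and RPL13A, HTB1 and HTA1, CPR1 and RPA14, and PAC10 and YGR079W lie between separate peaks, and the peak upstream of NRD1 ends nearer the gene.

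Peaks on both genes did not always meet, even in the wild type. The gap of IPP1, the inorganic pyrophosphatase gene, and YBR012W-A (1893 bp) was covered over 5.02% in the wild type and 1.11% in dbp2Δ. Coverage at RLI1, a ribosome recycling gene, and UBC13, a ubiquitin-conjugating enzyme gene (1341 bp), was 10.7% and 9.47%. At RRP5, needed for rRNA processing, and RPS10B (1290 bp), it was 24.7% and 18.4%. Shorter gaps were among them. The gap of CMI8 and MRPL28, a mitochondrial ribosomal protein gene (306 bp), was covered over 7.84% in the wild type, that of YBL071C-B and KTI11 (421 bp) over 23.3%, and that of MET6, the methionine synthase gene, and IES5 (687 bp) over 17.8%. In dbp2Δ these gaps were covered over 0%, 16.4% and 0%. However, MRPL28 (6.08% covered) and MET6 (5.38%) had no called peak in dbp2Δ, so only KTI11 and YBL071C-B were both called there. The least covered was that of MPE1, a cleavage and polyadenylation factor gene, and TOA2, a TFIIA subunit gene. Their gap of 722 bp was covered over 0% in both lists although 59.4% of MPE1 and 59.9% of TOA2 lay under wild-type peaks. In dbp2Δ, 56.5% of MPE1 and 0% of TOA2 were covered.

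The distance that a peak reached from a start codon into the gap was measured at genes whose partner across the gap had no peak. Wild-type peaks covered the start codon of 322 of 380 such genes (84.7%), and dbp2Δ peaks that of 252 of 381 (66.1%). From covered start codons, peaks reached a median of 166.5 bp into the gap in the wild type (interval 149 to 192) and 148 bp in dbp2Δ (interval 123 to 167). In 296 genes that qualified in both lists, the start codon was covered in 88.5% and 74.7%. It was covered only in the wild type for 46 genes and only in dbp2Δ for 5. Where it was covered in both (216 genes), wild-type peaks reached a median of 194 bp and dbp2Δ peaks 153.5 bp. The paired difference, dbp2Δ minus wild type, had a median of -30 bp (interval -36 to -21), with 171 genes shorter, 39 longer and 6 equal in dbp2Δ.

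The upstream edge of tandem genes and the downstream edge of the divergent genes gave other values. At tandem gaps, 274 genes selected in the same way had their start codon covered in 92.3% and 88.0%, and the paired difference in reach over 234 genes was -14 bp (interval -24 to -6). At the 3′ end of the divergent genes, wild-type peaks ran a median of 466 bp past the gene and dbp2Δ peaks 548 bp. The paired difference there was +58 bp (interval 46 to 74) over 283 genes, with 202 further and 80 less far in dbp2Δ. The 3′ ends of the tandem genes gave nearly the same, 59 bp (interval 46 to 70) over 259 genes, with 182 further and 75 less far. The downstream difference was therefore not particular to genes at divergent gaps. The 2 distances are unlike measures. Upstream reach was cut at the far end of the gap and needed a partner without a peak. The downstream distance ran to the end of the peak, up to 10205 bp, whatever genes it passed. With that limit, upstream edges in divergent gaps lay closer to the gene in dbp2Δ while downstream edges of the same genes lay further out.

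**Figure D4:**
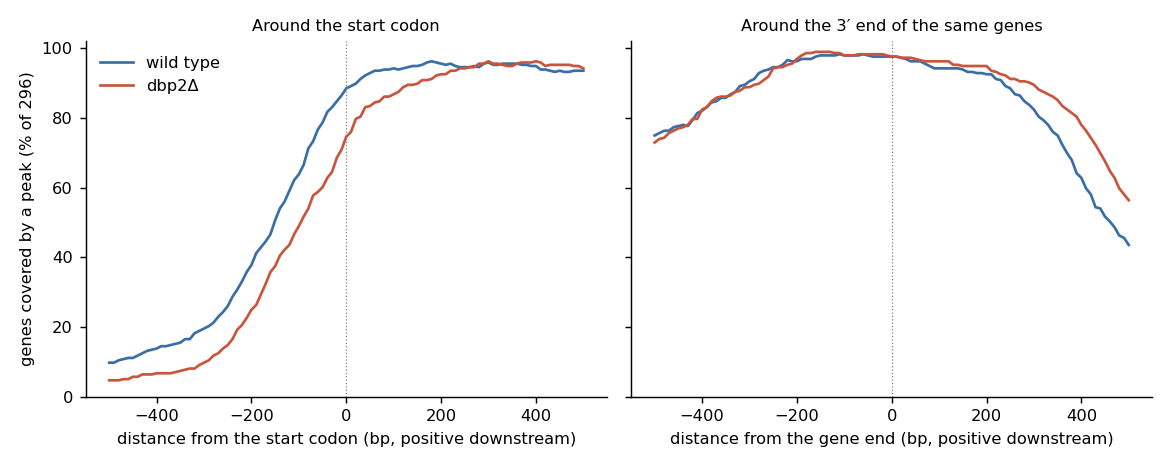
Percent of 296 genes under a peak at each position around the start codon (left; negative values lie in the divergent gap) and around the 3′ end (right), for the wild type (blue) and dbp2Δ (red). The genes bound a divergent gap, had a peak in both lists and had a partner without one. The dbp2Δ line is lower from 500 bp upstream to 200 bp downstream of the start codon and higher from 200 bp past the gene end outwards.

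Position by position, 37.8% of the 296 genes were covered at 200 bp upstream of the start codon in the wild type and 25.0% in dbp2Δ. At 100 bp upstream these shares were 63.9% and 49.0%. They were 94.3% and 86.8% at 100 bp into the gene, and 95.9% and 96.3% at 300 bp. At 400 bp past the gene end the order was the other way, with 62.8% of genes under wild-type peaks and 78.0% under dbp2Δ peaks.

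The start codons of ribosomal protein genes stayed covered, while fewer of those of ribosome assembly genes were covered in dbp2Δ. Of 44 cytosolic ribosomal protein genes among the 296, all 44 had a covered start codon in both lists, and the median reach was 243 bp and 207 bp. Of 25 ribosome assembly genes, 24 start codons were covered in the wild type and 15 in dbp2Δ. In those 15, the median reach was 147 bp and 70 bp, and it was shorter in dbp2Δ in each of them. In 192 genes of none of the listed groups, 83.3% and 69.3% of start codons were covered. Whether the groups differ beyond what replicates would show could not be tested.

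Peak summits, where the enrichment of a peak is highest, also lay in divergent gaps less often in dbp2Δ. A summit fell inside 98 divergent gaps in the wild type (7.04%) and 36 in dbp2Δ (2.58%), where all gaps gave 9.58% and 10.6%. For convergent gaps the counts were 141 and 244, and for tandem gaps 264 and 278. Of the 98 wild-type gaps, 35 had a peak on neither flanking gene, 53 on 1 and 10 on both. In 26 of the 98, the strongest overlapping dbp2Δ peak also had its summit in the gap, and in 26 others its summit lay in a flanking gene. In 18 it lay elsewhere, and in 28 no dbp2Δ peak overlapped. For 44 wild-type summits beside a single called gene and with an overlapping dbp2Δ peak, the dbp2Δ summit lay a median of 176 bp further along that gene (interval 55 to 855), downstream in 36 and upstream in 8. These 44 were chosen for a wild-type summit in the gap, which leaves more room downstream than upstream. Chosen the other way, 17 dbp2Δ summits in such gaps had the wild-type summit at a median of -17 bp along the gene (interval -55 to 83), downstream in 8 and upstream in 9. These distances include cases in which the overlapping peak spans several genes.

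The strongest summits in divergent gaps included those at NRD1, GCN4 and IMD3. NRD1 encodes an RNA-binding termination factor known to limit transcription of its own gene. In the gap that it shares with RAD50, a DNA repair gene (chrXIV:174316-175409), the wild-type summit was 9.68-fold enriched and 204 bp upstream of the NRD1 start codon. The dbp2Δ summit was 11.1-fold enriched and 124 bp upstream. GCN4, the activator of amino acid synthesis genes, is transcribed with a long leader, and its gap with YEL008W (chrV:139764-140511) held summits of 8.98 and 12.7. These lay 516 and 499 bp from the GCN4 start codon. Between ATG23, an autophagy gene, and IMD3, which encodes IMP dehydrogenase (chrXII:1001704-1002556), summits of 8.01 and 10.7 were found. All of these gaps held a summit in both lists.

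Other strong wild-type summits were not matched by a dbp2Δ summit in the gap. In the gap of ROX3, a Mediator subunit gene, and RPL32 (chrII:44919-45977), a wild-type summit of 9.16 lay 246 bp upstream of RPL32, and the overlapping dbp2Δ peak had its summit 855 bp further along. Coverage of that gap was nearly equal, 51.1% and 50.5%. Upstream of NOP1, the fibrillarin gene, the gap with TSC13 (chrIV:426935-427363) held a wild-type summit of 5.79 and was covered over 100% and 61.5%. TSC13, a fatty acid elongation gene, was itself covered over 100% and 22.4%. The gap of AST2 and RPS8B held a wild-type summit of 7.83 and was covered over 44.1% and 42.6%. That of TRM11 and HRP1, a gene for a cleavage and polyadenylation factor, held one of 7.35 and was covered over 54.1% and 51.9%. Only RPS4B and MNL1 held a dbp2Δ summit (6.33) and no wild-type summit among the 10 strongest dbp2Δ summits, and there the wild-type summit lay 48 bp away inside RPS4B.

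Summits also stood in gaps with no called gene on either side, in 35 of the 98 wild-type gaps and 14 of the 36 dbp2Δ gaps. VPS25, an ESCRT-II gene, and URA8, a CTP synthase gene (chrX:619766-620753), had a wild-type summit of 4.21 and a dbp2Δ summit of 2.98. GLT1, the glutamate synthase gene, and UGA3, a transcription factor gene (chrIV:155641-156317), had 4.13 and 2.88, with 67.4% and 58.1% of the gap covered. At SWE1, a cell cycle kinase gene, and MNN5 the values were 2.70 and 2.92. GCG1 and CHD1, a chromatin remodeler gene (chrV:503783-505391), bounded a gap of 1609 bp covered over 90.9% and 90.2%, although at most 2.88% of either gene was covered in either list. LEU4, of leucine synthesis, and MET4, the activator of sulfur genes, lacked a call in the wild type only, and their gap was covered over 100% in the wild type and 36.2% in dbp2Δ. Coverage of LEU4 itself was 11.4% in the wild type and 100% in dbp2Δ, and that of MET4 31.6% and 96.0%.

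Complete loss of coverage was seen at 28 divergent gaps and gain at 3. At least 50% coverage in the wild type went with 0% in dbp2Δ at 2.01% of divergent gaps and 2.32% of all gaps. Of the gaps that reached 50% in the wild type, and so could be lost, these were 28 of 159 at divergent gaps (17.6%, interval 12.5 to 24.3) and 122 of 1375 over all gaps (8.87%). Tandem gaps gave 77 of 691 (11.1%, interval 9.01 to 13.7), which overlaps the divergent interval, and convergent gaps 17 of 525 (3.24%). The reverse was seen at 0.215% of divergent and 4.12% of all gaps, or 3 of the 85 divergent gaps that reached 50% in dbp2Δ (3.53%) and 216 of 1411 over all gaps (15.3%). For gains, tandem gaps gave 71 of 668 (10.6%) and convergent gaps 142 of 658 (21.6%). Among the 28, 20 had been bridged in the wild type, their median length was 309 bp, and their wild-type peaks ranged from 1.40-fold to 3.73-fold. Only 6 of the 28 had a wild-type peak of at least 2-fold. In 22 of them some part of a flanking gene was still covered in dbp2Δ.

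The strongest of these losses was the gap of PAC10, a prefoldin subunit gene, and YGR079W (chrVII:640372-640719), under a 3.73-fold wild-type peak. In dbp2Δ, 79.7% of PAC10 and 94.5% of YGR079W stayed covered on either side of the uncovered 348 bp. At NBL1 and RPN10, a ubiquitin receptor gene of the proteasome (chrVIII:498860-499078), the wild-type peak was 2.85-fold, and 72.1% of RPN10 but 0% of NBL1 was covered in dbp2Δ. At RPB9, a Pol II subunit gene, and MNP1, a mitochondrial ribosomal protein gene (chrVII:374828-375086), the peak was 2.23-fold. There RPB9 remained covered over 97.8% and MNP1 over 0%. VTC3, a polyphosphate synthesis gene, and CTF19, a kinetochore gene, had 51.9% of their gap and 100% of VTC3 covered in the wild type. Neither of these genes nor the gap was covered in dbp2Δ.

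The remaining named losses had wild-type peaks near 2-fold. They were the gaps of SLX9, a ribosome assembly gene, and TOM20, a mitochondrial import receptor gene (2.07), and of RPN6, a proteasome lid gene, and PMT1, a protein mannosyltransferase gene (2.00). YDL009C and APC11, of the anaphase-promoting complex, had 2.00, and SLM3 and DBP10, another DEAD-box helicase gene, 1.99. RNA1, the Ran GTPase activator gene, and TAF9, of TFIID and SAGA, had 1.98, and RET2, a coatomer gene, and RPN12, another proteasome lid gene, 1.96. The 3 gains were at SLS1 and RRN5 (100% in dbp2Δ, 1.65-fold), YNL143C and MEP2, an ammonium permease gene (83.5%, 1.71-fold), and YOL118C and RRI2 (93.4%, 2.81-fold).

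Groups of flanking genes were compared by counts. The reference is the 526 divergent gaps with a called gene in either list, whose mean coverage was 35.7% (wild type) and 23.1% (dbp2Δ); 328 of them were lower and 70 higher. Ribosome biogenesis genes bounded 55 gaps. Their mean coverage was 45.7% and 20.2%, 40 were lower and 1 was higher in dbp2Δ, and the number bridged was 19 and 4. Of the 3 gaps with assembly or RNA polymerase I genes on both sides, NSA2 and LCP5 stayed bridged, RPA43 and RPA190 had 36.6% and 31.2%, and RRP3 and SSF1 had 9.43% and 0%. Proteasome genes bounded 20 gaps with mean coverage of 39.9% and 13.7%, of which 12 were lower and none was higher. In 4 of the 20, coverage of at least 50% in the wild type went with 0% in dbp2Δ, against 20 of the 526 reference gaps. The groups were not limited to gaps with a called gene, as the reference was, and they overlap it. In both groups most of the covered gaps were covered less in dbp2Δ.

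Cytosolic ribosomal protein genes bounded 66 gaps with mean coverage of 50.1% and 42.7%, 53 lower and 6 higher. All 71 ribosomal protein gene positions at these gaps had a peak in both lists. Of the 5 gaps with ribosomal protein genes on both sides, RPS22A and RPL39 and RPL24A and RPL30 were bridged in both lists. RPS15 and RPP2A, and RPS16B and RPL13A, were bridged in the wild type only, and RPL13B and RPS16A were covered over 63.8% and 50.6%. RPS16B with RPL13A and RPS16A with RPL13B are copies of the same gene pair, and nearly identical copies can share reads, so their values are uncertain. The same limit holds for other gene copies named above, such as RPS4A and RPS4B.

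All 4 divergent pairs of core histone genes were bridged in the wild type. HHT2 and HHF2 (chrXIV:576051-576726) and HHF1 and HHT1 (chrII:255685-256330), which encode histones H3 and H4, were bridged in dbp2Δ as well. HTA2 and HTB2 (chrII:235793-236491), for H2A and H2B, were also bridged in both. HTB1 and HTA1 (chrIV:914713-915529) were covered over 60.8% in dbp2Δ. Histone gene copies are also close in sequence, and the same uncertainty holds. With HTZ1, the H2A.Z gene (26.4% and 20.8%), and HHO1, the linker histone gene (18.3% and 0%), 3 of 6 histone gaps were lower and none was higher.

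Chaperone genes bounded 12 gaps with mean coverage of 55.1% and 34.0%, 9 of them lower and 1 higher. The gap of SSA1, an Hsp70 gene, and EFB1, an elongation factor gene, had 33.8% and 27.8%. That of YDJ1, an Hsp40 gene, and MTQ1 had 100% and 59.5%. Amino acid biosynthesis genes bounded 28 gaps (28.1% and 18.8%, 17 lower, 5 higher), among them ILV5 and ATG33 with 32.1% and 26.3%. Translation factor genes bounded 14 gaps (42.2% and 36.3%, 7 lower, 3 higher), and at TKL2 and TEF2, an eEF1A gene, coverage was 29.5% and 28.8%. Glycolysis and fermentation genes bounded 8 gaps (24.7% and 21.0%, 5 lower, none higher). Among these, YHR173C and ENO2, an enolase gene, were bridged in both lists and ADP1 and PGK1 had 30.8% and 27.3%. Each of these groups had more gaps lower than higher, as did the reference set.

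Smaller groups gave few covered gaps. Cell wall genes bounded 8 gaps (45.2% and 29.9%, 3 lower, 1 higher), among them PIR1 and PIR3, genes for cell wall glycoproteins, with 58.0% and 42.4%. Phosphate starvation genes bounded 7 gaps (26.8% and 20.9%, 3 lower, 1 higher), and the gap of TDA2 and VTC1 stayed bridged. mRNA export and packaging genes bounded 10 gaps (19.4% and 14.1%, 4 lower, none higher), among them CYM1 and NPL3, an mRNA-binding protein gene, with 49.4% and 40.1%. Hexose transporter genes bounded 9 gaps with no coverage in either list. Meiosis and sporulation genes bounded 15, of which 14 had no coverage in either list, among them that of DIT2 and DIT1, genes of the spore wall. No gap of a galactose gene met the rule.

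**Figure D5:**
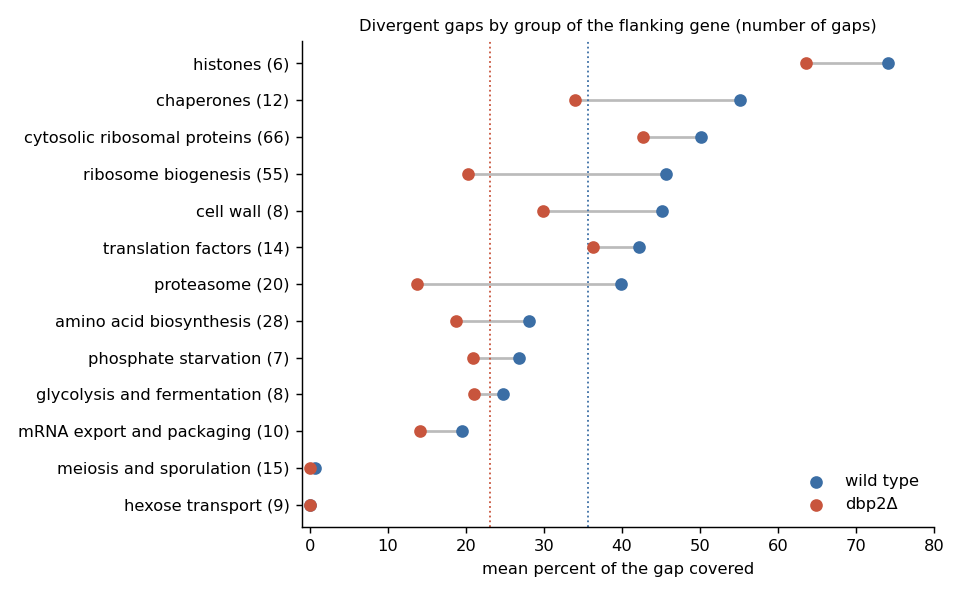
Mean percent of the gap covered by wild-type (blue) and dbp2Δ (red) peaks for divergent gaps bounded by a member of each gene group, with the number of gaps in parentheses. Dotted lines mark the means of the 526 divergent gaps with a called flanking gene in either list, 35.7% and 23.1%, and no error between replicates can be drawn. The widest separations are at proteasome (39.9% and 13.7%) and ribosome biogenesis genes (45.7% and 20.2%).

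The length limit excluded 25 divergent gaps. Just inside it were the gaps of YDR524C-B and API2 (106 bp, bridged in both lists), YKL183C-A and LOT5 (113 bp), RSE1 and GSF2 (120 bp), SPO14 and YKR032W (121 bp), and MSS116 and YDR194W-A (124 bp). Just outside it were YAL065C and YAL064W-B and YBR298C-A and MAL32 (94 bp each), YBR072C-A and RDH54 (90 bp), DGR1 and NRK1 (88 bp), and NIF3 and BOL2 (81 bp). The gap of MRM1 and HIS3 (237 bp) borders a marker gene for which both strains carry a deletion allele, and it was covered over 0% in both lists.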

How the data were processed

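Chromatin fixed with formaldehyde and sheared by sonication was immunoprecipitated and sequenced. Tools named in the submitters' processing notes are Bowtie2 2.3.3.1, MACS2 2.1.2 and Trimmomatic 0.36, with build R64, and their trimming and mapping parameters are not given in the sources used here. MACS2 ran in paired-end mode at a q-value cutoff of 0.05 on the pooled immunoprecipitates (4073418 and 4551809 fragments, wild type and dbp2Δ) against the pooled inputs (5211142 and 4837667), per the file headers. The deposited lists give positions, a pileup signal, a −log10 q-value and fold enrichment, a ratio to the local background. Positions and fold enrichment were used, and the authors' pileup signal and −log10 values were not.

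Genes came from a RefSeq table of R64 with 6431 nuclear genes, 6002 of them protein-coding, and the strand from the W or C of each systematic name. Coverage, summits and distances were computed with Python 3.11.15, pandas 2.3.3 and numpy 2.4.6, and the overlap code was tested on simulated data. The members, gene groups and comparisons were chosen with earlier results of these data known. Gaps named are the 10 strongest bridged in both lists, the losses and gains (at most 10 each), the strongest summits, gaps between called genes with least coverage, fixed gene pairs, up to 4 examples per group, and the longest bridged and shortest gaps. Up to 10 summits per list were kept with any flanks and up to 10 with no called gene, and some are summarised only. Promoter sequences and motifs were not analysed here.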

Additional observations from a re-analysis of the deposited data

How the results depend on the processing

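Over 8 alternatives, 84 values were recomputed. Of these, 61 stayed within the 95% interval over gaps or genes (shares, means and distances) or within 1.5 times (counts). The other 23 moved further. A change of direction was scored only for the paired difference in reach, and 0 values changed. The main setting and the alternatives together gave 46 pairs of values, and the wild type (or loss) was the higher in all 46. With peaks of at least 2-fold only, the share of gaps covered over at least 50% was 8.69% in the wild type, summits lay in 54 wild-type and 21 dbp2Δ gaps, and the wild-type reach was 193 bp. Mean coverage was then 1.07% and 0.566% beside no called gene, and in dbp2Δ 21.5% beside 1 and 69.7% beside both. With a gene called at 80% coverage, mean coverage was 4.02% in the wild type beside no called gene, and 35.4% and 24.1% beside 1. With a gene called at any covered base, the means were 0.348% and 0.264% beside none, 14.2% and 8.14% beside 1, and 54.1% and 31.4% beside both. Keeping gaps that hold another gene gave 58 dbp2Δ gaps with a summit. Requiring 100% coverage gave 6.89% and 3.09% of gaps and 1 gain. Allowing under 50% in the other list gave 84 losses and 10 gains. The cause of these shifts was not tested beyond the change of definition itself. No paired analysis was possible because the authors' peaks were called on pooled replicates, and for the same reason single replicates could not be left out. Fragment size, depth and peak width differ between the lists with the strain and cannot be told apart from it.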

Other observations

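Divergent gaps that hold another annotated gene were left out above. Mean coverage of these 108 gaps was 18.8% in both lists, 17 reached 50% coverage in the wild type and 18 in dbp2Δ, and 28 were lower and 17 higher. A summit lay in 19 of them in the wild type and 22 in dbp2Δ, and in 16 in both. The 13 that hold a gene for a small nucleolar RNA, a class that guides modification of rRNA, were covered over a mean of 80.5% and 79.6%, and the same number, 9, held a summit in each list. The 86 that hold a tRNA gene, which RNA polymerase III transcribes, had means of 10.9% and 11.3%, with summits in 11 and 14. The difference between these gaps and the 1393 members was not tested. The gap of GAL10 and GAL1 (chrII:278353-279020), the galactose pair, is among the 108 and was covered over 0% in both lists.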
